A study of Homo sapiens with 4 samples.

Results

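The genes described here encode the machinery that carries proteins into mitochondria. They were chosen by symbol: every row of the count files whose symbol begins with TOMM or TIMM followed by a digit, and in addition DNLZ, PAM16, GRPEL1, GRPEL2, CHCHD4, SAMM50, MTX1, MTX2, PMPCA and PMPCB. That rule found 37 rows with 36 symbols among the 20323 rows of the files. TIMM10B stood on 2 rows, of which the one with the larger sum was used. Of the 36 genes, 35 passed the filter on low counts, and TOMM20L, a copy of TOMM20, had a count of 0 in all libraries, which allows up to 0.286 CPM in the shallowest of them (3 counts; CPM is the count per 1e6 counts after scaling).

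The libraries hold ribosome footprints from 5-fluorouracil-resistant (5-FU) HCT-8 cells, a line from a human colorectal cancer. Cells were transfected with a METTL14 overexpression plasmid (OE) or with a negative control plasmid (NC), 2 libraries each, and all were given cycloheximide at 100 ug/mL, which holds ribosomes on their messages. METTL14 binds RNA beside the catalytic METTL3 in the enzyme that writes N6-methyladenosine. Both groups share 1 resistant line and a transient plasmid, and the submitters describe 2 independent experiments. The comparison asks which messages carry more or fewer footprints when METTL14 is supplied in excess. A footprint count combines the amount of a message with its ribosome load, and a lower count cannot tell fewer cells from less RNA per cell.

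Nearly all mitochondrial proteins are made on cytosolic ribosomes and imported. The TOM complex of the outer membrane is the common entry gate; behind it the TIM23 complex and its motor pull proteins with a cleavable presequence into the matrix, the small TIM chaperones hand carrier proteins to the TIM22 complex, the SAM complex inserts beta barrels, and a disulfide relay traps small cysteine-rich proteins between the membranes. The matrix processing peptidase then removes the presequence.

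METTL14 had 448 and 91.2 CPM in the OE libraries and 44.5 and 47.6 CPM in the NC libraries, so both OE libraries lay above both NC libraries, by unequal amounts. Library totals ran from 7742274 counts in OE replicate 1 to 24392875 in OE replicate 2, with 18707758 and 21846389 in NC. The OE libraries correlated with r = 0.86 over the log2 CPM of 12560 genes and the NC libraries with r = 0.98; genes are not independent replicates. All 8 intestinal epithelial markers were present, with summed levels of 6160 and 24521 CPM in OE and 21682 and 21073 CPM in NC. KRT8 and KRT18 made up most of each sum. EPCAM, KRT19, CDH1 and VIL1 were lower in both OE libraries (50%, with 20.4% of all genes). CDX2 was higher in both (12.5%, with 19.9% of all genes). KRT8, KRT18 and CDX1 overlapped, CDX1 at only 2.67 to 6.42 CPM. Of the other cell types, leukocyte markers summed to between 28.7 and 41.0 CPM in OE and between 70.6 and 75.5 CPM in NC, nearly all from CD68, with CD3E at 0 and PTPRC at or under 0.0952 CPM. Fibroblast markers summed to at most 6.66 CPM in OE and at most 10.3 CPM in NC, and endothelial markers to at most 0.381 CPM in OE and 0.410 CPM in NC, with CDH5 and KDR at 0.

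The import genes as a group lay on opposite sides of NC in the 2 OE libraries. In OE replicate 1, 28 of 35 lay below both NC libraries, where 45.5% of all genes tested did. In OE replicate 2, 25 of 35 lay above both NC libraries, where 42.8% of all genes did. Both at once held for 20 of the 35, or 57.1%, and for 19.8% of all genes. The members' median difference from the NC mean on the log2 scale was -0.76 for OE replicate 1, where all genes had 0.02, and 0.23 for OE replicate 2, where all genes had 0.00, while the median difference between the NC libraries was 0.12 for the import genes. With library totals as the only scaling, 21 members lay below both NC libraries in OE replicate 1 (25.1% of all genes), their median there was -0.17, and the median of all genes in that library was 0.61. As a share of all counts, the 36 genes took 0.215% in OE replicate 1 (exact binomial 95% interval 0.212% to 0.218%) and 0.290% in OE replicate 2 (0.288% to 0.292%), and in NC 0.260% (0.258% to 0.262%) and 0.250% (0.247% to 0.252%). These intervals, like the Poisson intervals given later, cover counting error only. The summed share therefore lay below NC in one OE library and above it in the other.

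**Figure D1:**
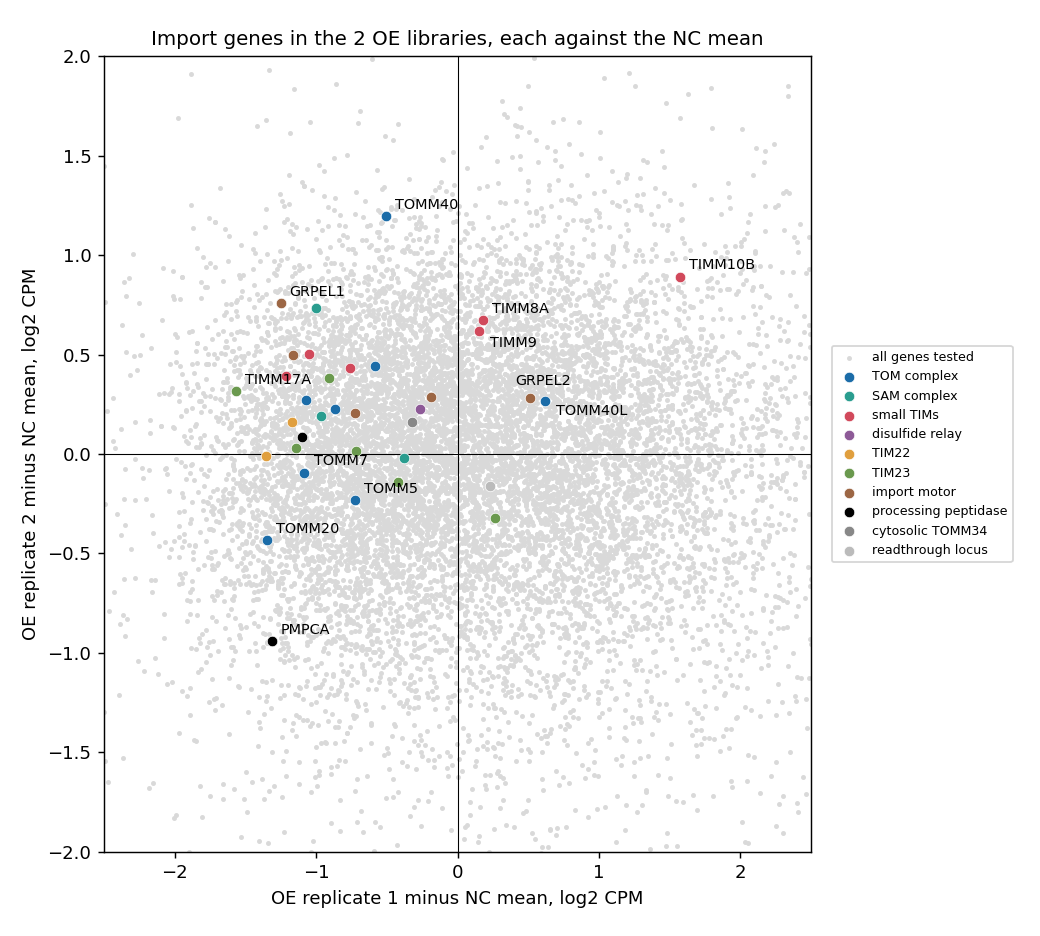
Difference of each OE library from the NC mean, in log2 CPM, with OE replicate 1 on the x axis and OE replicate 2 on the y axis. Grey points are all genes tested that fall within the axes; coloured points are the 35 import genes by role. Most import genes sit in the upper left quadrant (negative on x, positive on y). PMPCA, TOMM20, TOMM5, TOMM7, TIMM21, MTX2 and TIMM29 sit at the lower left, with MTX2 at -0.02 and TIMM29 at -0.01 on y. TIMM10B, TIMM8A, TIMM9, GRPEL2 and TOMM40L sit at the upper right, and TIMM23B and TIMM23B-AGAP6 at the lower right.

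No import gene passed the test over all genes: 0 of 35 had an adjusted p below 0.05 (edgeR's quasi-likelihood fit, Benjamini-Hochberg), the smallest being 0.734, and 0 of 12560 genes passed (0%). At an unadjusted p below 0.05 there were 2 of 35 members, PMPCA and TIMM10B, and 5.5% of all genes. The DESeq2 Wald test called 25 genes over the whole table and 0 of the members. The median fold change of the members was -0.13 on the log2 scale, beside 0.09 for all genes tested, and 0.08 beside 0.40 with library totals only. Groups did not overlap for 9 of 35 members: OE was lower for 4, a position that 20.4% of all genes had, and higher for 5, which 19.9% of all genes were. Both shares of members, 11.4% and 14.3%, were under those of all genes. The same 4 genes were lower under the RLE scaling (20% of all genes) and with library totals only (11.7% of all genes). The 5 higher ones were also higher under both. Library totals added CHCHD4, TIMM44, TOMM34 and TOMM40 to them. Of all genes, 20.2% were higher under RLE and 30.2% with library totals. With no filter on low counts 4 were higher, and with a minimum of 50 counts 5 were lower. Shares of all genes are not given for these 2 filters. Exact Poisson 95% intervals of OE and NC overlapped for 4 of these 9 genes, TOMM7, TIMM8A, TIMM9 and TOMM40L.

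**Figure D2:**
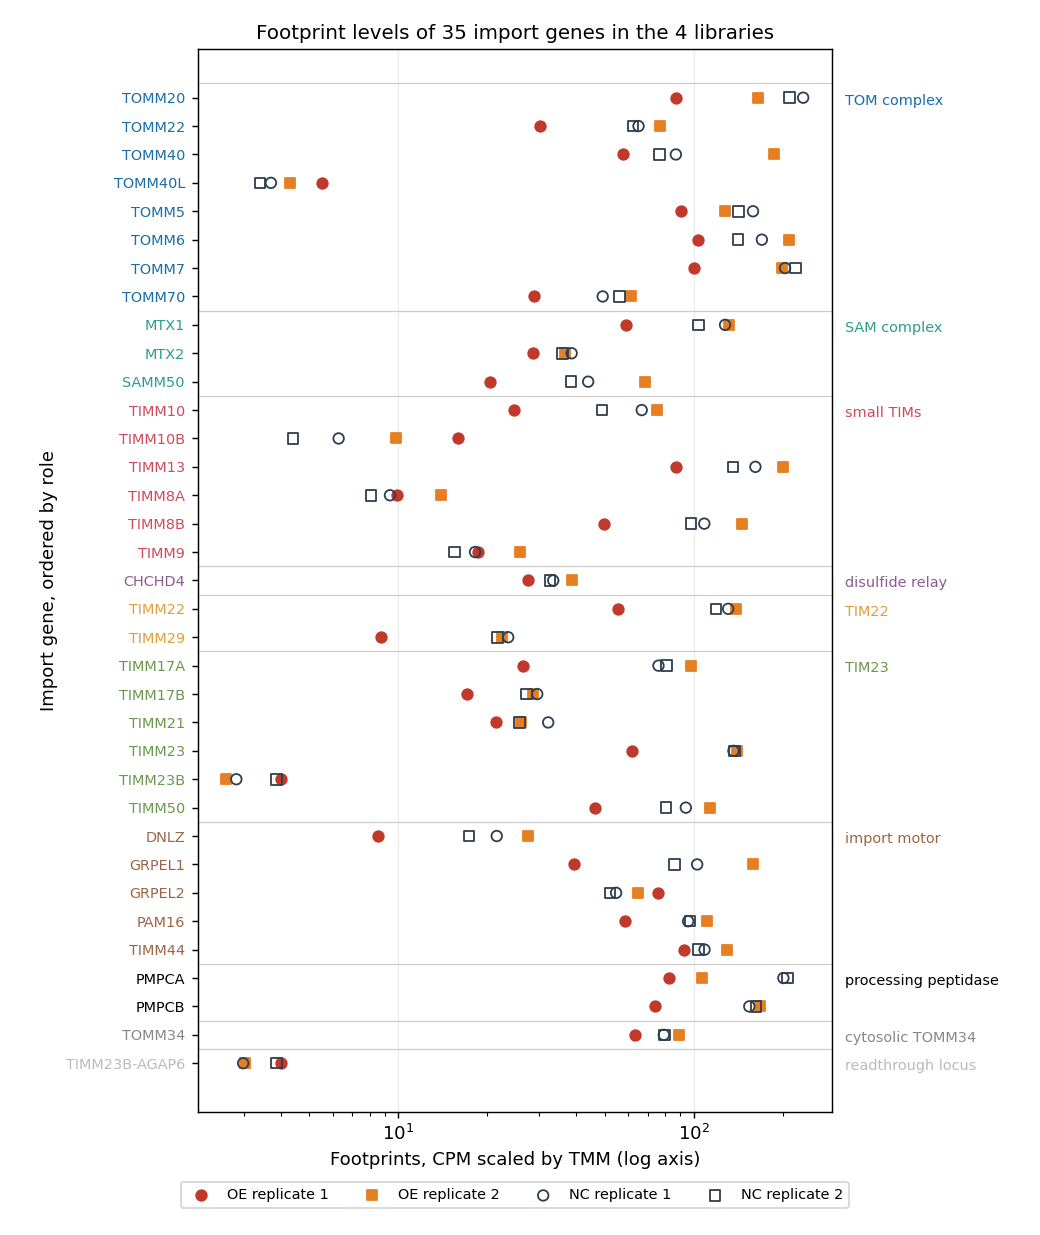
Footprint level of 35 import genes in each library, as CPM on a log axis, with genes down the page by role. Filled symbols are OE and open symbols NC, circles replicate 1 and squares replicate 2. The filled circle (OE replicate 1) lies left of the open symbols for 28 genes and the filled square (OE replicate 2) right of them for 25.

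The position of a gene in OE replicate 1 went with its NC level. All genes tested were put into 10 classes of 1256 by NC level. The median difference of OE replicate 1 from the NC mean was 1.17 in class 1, the lowest, and -1.08 in class 10, whereas for OE replicate 2 the class medians lay between -0.09 and 0.07. Of the 35 import genes 22 were in classes 8 to 10, with 14 of them in class 9, whose median over all genes in OE replicate 1 was -0.65. Across the members the NC level had r = -0.70 with the difference in OE replicate 1 and r = -0.15 with that in OE replicate 2, and across all genes -0.52 and -0.01; the points of each share their libraries and the NC mean. The 7 members above both NC libraries in OE replicate 1 were TIMM10B, GRPEL2, TOMM40L, TIMM8A, TIMM9, TIMM23B and the readthrough locus TIMM23B-AGAP6. All but GRPEL2 lay in classes 1 to 5. The part of this dependence in each gene's value was not tested.

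**Figure D3:**
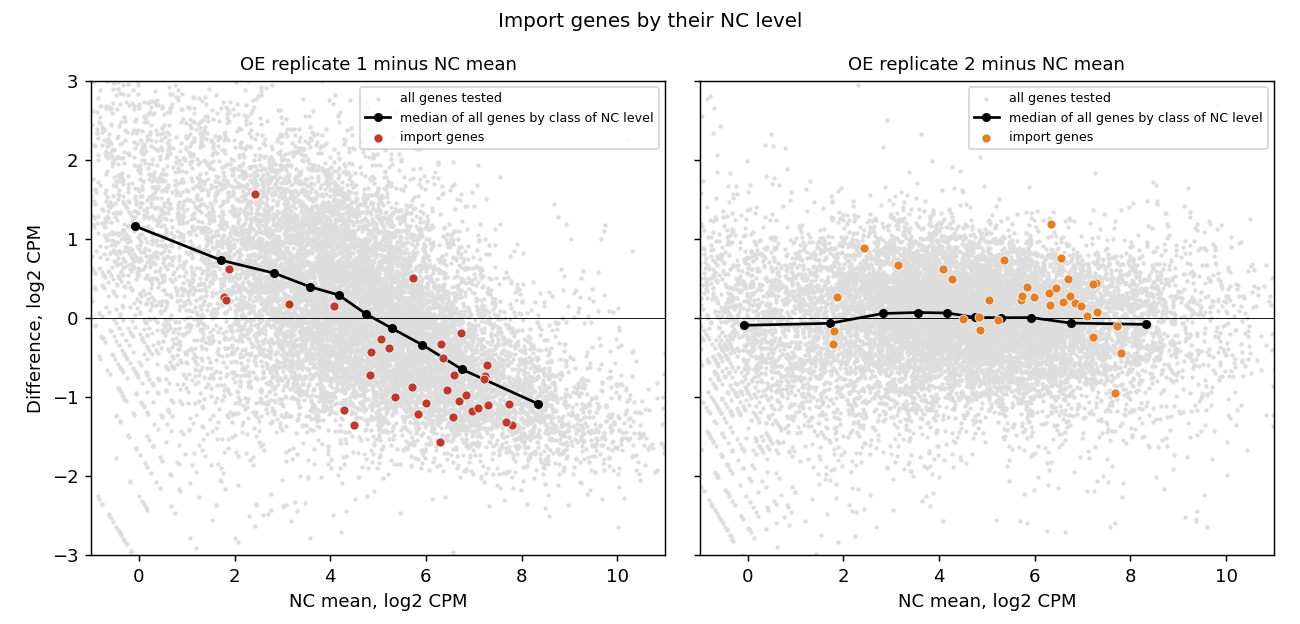
Difference from the NC mean against the NC mean, both in log2 CPM, for OE replicate 1 (left) and OE replicate 2 (right). Grey points are all genes tested within the axes, the black line joins the medians of all genes in 10 classes of NC level, and coloured points are the import genes. The black line slopes down with NC level on the left, between 1.17 and -1.08, and is flat on the right.

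At the outer membrane, both OE libraries were low for 3 of the 8 tested members of the TOM complex (37.5%, with 20.4% of all genes low) and high for 1 (12.5%, with 19.9%). The low ones, TOMM20, TOMM7 and TOMM5, had differences of -1.35, -1.08 and -0.73 in OE replicate 1. Their classes of NC level, 10 for TOMM20 and TOMM7 and 9 for TOMM5, had medians there of -1.08 and -0.65. In OE replicate 2 the differences were -0.43, -0.09 and -0.23, beside class medians of -0.08 and -0.06. TOMM20 (ENSG00000173726), the receptor that first binds presequences, had 87.1 and 164 CPM in OE and 234 and 210 CPM in NC. Both OE libraries were low, replicate 1 more so, and the exact Poisson 95% intervals of 81.5 to 92.9 and 159 to 170 CPM in OE did not reach the lowest NC bound of 204 CPM. Its log2 fold change was -0.82 (SE 0.45; adjusted p = 0.734, edgeR). TOMM5, a small subunit of the complex, had 90.4 and 127 CPM in OE and 158 and 142 CPM in NC, with a log2 fold change of -0.46 (SE 0.36). TOMM7, another small subunit and a factor in stabilising PINK1 at the outer membrane, had 99.9 and 198 CPM in OE and 203 and 221 CPM in NC. Its OE replicate 2 value lay just under the lower NC value, and the log2 fold change was -0.51 (SE 0.46).

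The channel and the other receptors of the TOM complex were split between the OE libraries. TOMM40 (ENSG00000130204), the beta barrel pore, had 57.4 and 187 CPM in OE and 86.9 and 76.4 CPM in NC. OE replicate 2 was the highest library and OE replicate 1 the lowest; the difference from the NC mean in OE replicate 2, 1.20 on the log2 scale, was the highest among the 35 members, and the fold change over both libraries was 0.58 (SE 0.61). TOMM40L, a paralog of the pore, had 5.52 and 4.30 CPM in OE and 3.71 and 3.40 CPM in NC, from 58 to 95 counts a library, and a log2 fold change of 0.46 (SE 0.47). Its difference in OE replicate 1, 0.62, was under the median of 0.73 of its level class 2. In OE replicate 2 it was 0.27, beside a class median of -0.06. The central receptor TOMM22 had 30.3 and 76.9 CPM in OE and 64.9 and 62.3 CPM in NC. TOMM70, the receptor for carrier proteins, had 28.7 and 61.4 CPM in OE and 49.1 and 56.0 CPM in NC, so OE lay on both sides of NC for either receptor. TOMM6 had 103 and 210 CPM in OE and 170 and 141 CPM in NC, with a log2 fold change of 0.01. TOMM34, a cytosolic cochaperone that shares the TOM name, had 63.4 and 88.9 CPM in OE and 79.1 and 79.7 CPM in NC.

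The SAM complex, which inserts beta barrels into the outer membrane, overlapped between the groups for its 3 members. Of all genes, 20.4% were lower in both OE libraries and 19.9% were higher in both. SAMM50, the core of the complex, had 20.5 and 68.2 CPM in OE and 43.9 and 38.3 CPM in NC, a log2 fold change of 0.11 (SE 0.60). MTX1 had 58.7 and 131 CPM in OE and 127 and 104 CPM in NC. The partner metaxin MTX2 had 28.7 and 36.7 CPM in OE and 38.6 and 36.0 CPM in NC. OE replicate 1 was the lowest library for all 3 genes, and 45.5% of all genes lay below both NC libraries there. The differences from the NC mean were -0.38 for MTX2, -0.97 for MTX1 and -0.999 for SAMM50.

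Of the 6 small TIM chaperones of the intermembrane space, TIMM10B, TIMM8A and TIMM9 were higher in both OE libraries, as 19.9% of all genes were. All 6 lay above both NC libraries in OE replicate 2 (42.8% of all genes), with a median difference of 0.56, and 3 of 6 in OE replicate 1, where the median was -0.31. The NC libraries also differed for these genes, with replicate 1 above replicate 2 in all 6 and a median difference of 0.24. TIMM10B (ENSG00000132286), also called TIM9b and a component at the TIM22 complex, had 15.9 and 9.86 CPM in OE and 6.28 and 4.40 CPM in NC. The Poisson intervals were 13.6 to 18.5 and 8.59 to 11.3 CPM in OE, above those of NC, which ended at 7.50 CPM. Its log2 fold change of 1.26 (SE 0.44; unadjusted p = 0.0352, adjusted p = 0.734, edgeR) was the highest of the members. Its differences of 1.58 and 0.89 in OE replicates 1 and 2 lay above the medians of its level class 3, 0.57 and 0.06. The second TIMM10B row (ENSG00000283977) held 33.3% of the symbol's counts in all 4 libraries and the first row 66.7%, so the 2 rows are not separate measurements; the second gave the same fold change of 1.26.

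TIMM8A and TIMM9 were likewise higher in both OE libraries, by less. TIMM8A, the gene of the deafness-dystonia syndrome, had 9.90 and 14.0 CPM in OE and 9.37 and 8.09 CPM in NC, with a log2 fold change of 0.45 (SE 0.37). TIMM9, which forms a hexamer with TIMM10, had 18.7 and 25.8 CPM in OE and 18.2 and 15.5 CPM in NC, with 0.40 (SE 0.32). For both genes OE replicate 1 was close to the higher NC library. Their differences there, 0.18 and 0.15, were under the medians of 0.57 and 0.29 of their level classes 3 and 5. In OE replicate 2 the differences were 0.67 and 0.62, beside class medians of 0.06 and 0.07. TIMM13, the partner of TIMM8A, had 87.2 and 199.8 CPM in OE and 161 and 136 CPM in NC. TIMM8B had 49.6 and 146 CPM in OE and 108 and 97.7 CPM in NC. TIMM10 had 24.6 and 74.9 CPM in OE and 66.6 and 48.9 CPM in NC, so these 3 chaperones had OE replicate 1 below NC and OE replicate 2 above it, like most of the import genes. CHCHD4, the oxidoreductase of the disulfide relay that folds the small TIMs, had 27.4 and 38.7 CPM in OE and 33.4 and 32.6 CPM in NC, a log2 fold change of 0.00 (SE 0.32).

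At the inner membrane, the TIM22 (2 members) and TIM23 (6 members) translocases had no member whose groups stood apart. Of all genes, 20.4% were lower in both OE libraries and 19.9% were higher in both. TIMM22, the carrier insertase, had 55.3 and 139 CPM in OE and 131 and 119 CPM in NC. TIMM29, its partner subunit, had 8.76 and 22.4 CPM in OE and 23.5 and 21.6 CPM in NC, a log2 fold change of -0.53 (SE 0.50). TIMM23, the channel of the presequence pathway, had 62.0 and 139 CPM in OE and 136 and 137 CPM in NC. OE replicate 2 was close to NC for these 3 genes and OE replicate 1 was low. TIMM17A had 26.4 and 97.5 CPM in OE and 75.9 and 80.6 CPM in NC, and its difference of -1.56 in OE replicate 1 was the lowest of the members in that library. Its paralog TIMM17B had 17.1 and 28.6 CPM in OE and 29.5 and 27.1 CPM in NC. TIMM50, the receptor that takes presequences from the TOM complex, had 46.3 and 113.5 CPM in OE and 93.9 and 80.5 CPM in NC. TIMM21, which links TIM23 to TOM, varied less, with 21.4 and 26.0 CPM in OE and 32.1 and 25.7 CPM in NC. TIMM23B, a near-identical copy of TIMM23, and the overlapping locus TIMM23B-AGAP6 had between 2.62 and 4 CPM over all libraries, with fractional counts that could be split among the copies in counting, so their values are uncertain.

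Of the 5 members of the import motor, GRPEL2 was higher in both OE libraries (20%, with 19.9% of all genes). The other members overlapped, so 0 were lower in both (20.4% of all genes). GRPEL1 and GRPEL2 are the nucleotide exchange factors of the matrix Hsp70. GRPEL2 (ENSG00000164284) had 75.9 and 64.9 CPM in OE and 54.5 and 52.1 CPM in NC, and averaged 70.4 ± 7.76 CPM in OE and 53.3 ± 1.76 CPM in NC (SD, n = 2 each). Its log2 fold change was 0.40 (SE 0.30; adjusted p = 0.741, edgeR), and it stood 0.51 above the NC mean in OE replicate 1, where the median of its class of NC level, class 8, was -0.34. Its paralog GRPEL1 had 39.4 and 159 CPM in OE and 103 and 86.1 CPM in NC, low in OE replicate 1 and high in OE replicate 2. PAM16, the regulator of the motor's J protein, had 58.3 and 111 CPM in OE and 95.6 and 97.1 CPM in NC. The Hsp70 anchor TIMM44 had 92.9 and 129 CPM in OE and 109 and 104 CPM in NC, and with -0.19 in OE replicate 1 it stayed closer to NC than the other 13 members of level class 9. DNLZ, which keeps the matrix Hsp70 soluble, had 8.57 and 27.4 CPM in OE and 21.5 and 17.4 CPM in NC. That Hsp70, HSPA9, is no member of the set; it had 524 and 961 CPM in OE and 1235 and 1347 CPM in NC.

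PMPCA (ENSG00000165688), the substrate-recognising subunit of the matrix processing peptidase, had the lowest fold change and the smallest unadjusted p of the 35 genes. It had 82.0 and 106 CPM in OE and 201 and 207 CPM in NC, or 94.1 ± 17.0 CPM in OE and 204 ± 4.66 CPM in NC (SD, n = 2 each). Both OE libraries were low, with differences of -1.31 and -0.94. Their Poisson intervals of 76.7 to 87.7 and 102 to 110 CPM did not reach the lowest NC bound of 194 CPM. PMPCA belonged to level class 10, whose medians over all genes were -1.08 (OE replicate 1) and -0.08 (OE replicate 2). It thus lay close to its class median for the first library and further below it for the second. The log2 fold change was -1.12 (SE 0.36; unadjusted p = 0.0250, adjusted p = 0.734, edgeR), so the difference did not pass over all genes. PMPCB, the catalytic subunit, had 73.9 and 168 CPM in OE and 154 and 162 CPM in NC, low only in OE replicate 1, with -0.39 (SE 0.49).

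Ratios of counts within a library need no scaling between libraries, and 9 pairs of partner or paralogous members were set side by side; the pairs were chosen with the counts in view and their ratios, whose size also depends on gene length, are given without a test. They still carry the shift of OE replicate 1 with NC level: in 8 of the 9 pairs the gene of the higher NC class was relatively lower in OE replicate 1 than in NC, the exception being TIMM22 with TIMM29. The part of that shift in the ratios was not tested. The ratio of PMPCA to PMPCB was 1.11 and 0.633 in OE and 1.30 and 1.28 in NC, lower in both OE libraries, with exact 95% intervals of 1.01 to 1.23 and 0.601 to 0.667 in OE and 1.24 to 1.37 and 1.21 to 1.34 in NC. The interval of OE replicate 1 overlapped that of NC replicate 2, and that of OE replicate 2 overlapped neither. The ratio of TOMM20 to TOMM22 was 2.88 and 2.14 in OE and 3.61 and 3.38 in NC. Those of TIMM9 to TIMM10 were 0.760 and 0.345 in OE and 0.273 and 0.317 in NC, and those of TIMM8A to TIMM8B 0.200 and 0.0958 in OE and 0.0865 and 0.0828 in NC, both higher in OE by far more in replicate 1. For these last 3 pairs, too, an interval of 1 OE library overlapped one of NC: OE replicate 1 for TOMM20 to TOMM22, and OE replicate 2 for the others. TIMM29 to TIMM22 varied little, at 0.158 and 0.161 in OE and 0.180 and 0.182 in NC, with overlapping intervals.

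The other 4 pairs overlapped. GRPEL1 to GRPEL2 was 0.519 and 2.45 in OE and 1.88 and 1.65 in NC, below 1 in OE replicate 1 alone. TOMM40 to TOMM40L was 10.4 and 43.5 in OE and 23.4 and 22.5 in NC. TIMM17A to TIMM17B was 1.54 and 3.41 in OE and 2.57 and 2.97 in NC. MTX1 to MTX2 was 2.05 and 3.57 in OE and 3.30 and 2.88 in NC. In these 4 pairs OE replicate 1 was the lowest and OE replicate 2 the highest of the libraries.

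**Figure D4:**
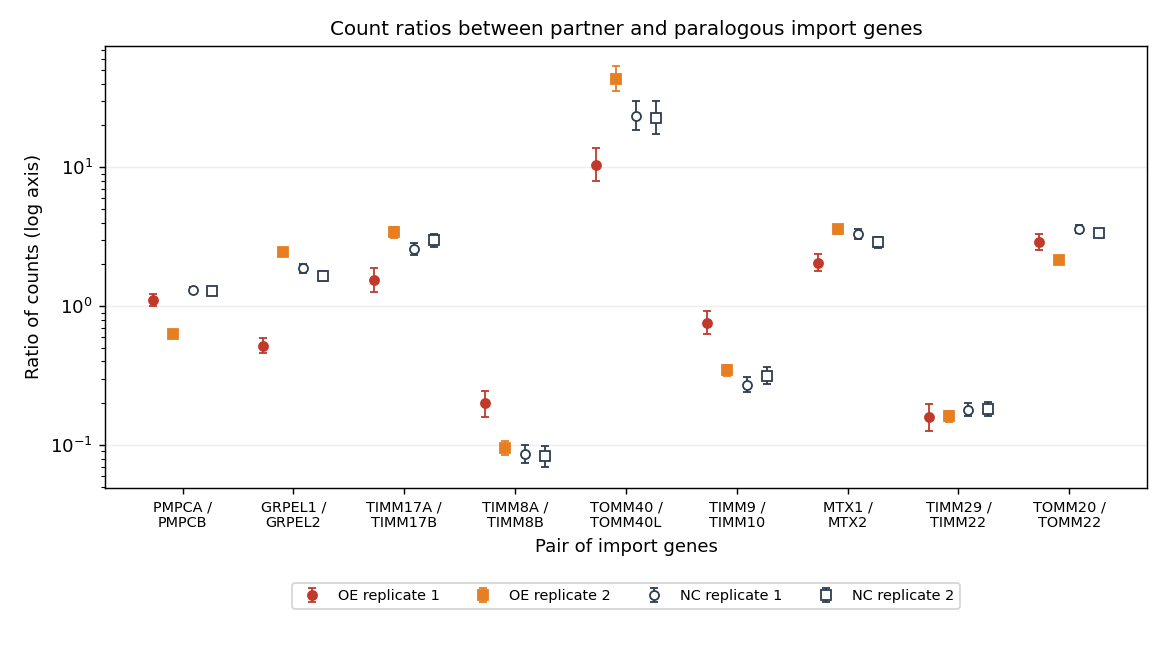
Ratio of the counts of 9 pairs of import genes in each library, on a log axis, with exact binomial 95% intervals that cover counting error only. Filled symbols are OE and open symbols NC. The PMPCA ratio is below both NC values in both OE libraries, 1.11 and 0.633 against 1.30 and 1.28, while GRPEL1 to GRPEL2 lies on both sides of NC.

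Promoters were compared because nuclear genes for mitochondrial proteins are known targets of NRF1, of the ETS factor GABPA (NRF2) and of YY1. RefSeq promoters (GRCh38.p14, 250 bases before to 50 after the start) were at hand for 30 of the 36 genes; DNLZ, GRPEL1, GRPEL2, TIMM8B, TOMM5 and TIMM23B-AGAP6 were not searched. On either strand, GCGCANGCG for NRF1 was in 10 of the 30 (33.3%) and in 11% of 15842 protein-coding promoters, CCGGAAGT for GABPA in 7 (23.3%; 6.19% of all), and AAGATGGC for YY1 in 3 (10%; 3.91% of all). At least 1 of the 3 was in 18 of the 30 and in 19% of all promoters. The letters were chosen with the members known, matches were allowed to overlap, and a promoter with several was counted once. The 3 promoters printed belong to TOMM20, the receptor that was low in both OE libraries, and to PMPCA and TIMM10B, the members with an unadjusted p below 0.05. Capitals mark the matches: NRF1 and then GABPA in TOMM20, YY1 in PMPCA and GABPA, on the opposite strand, in TIMM10B. They lie at chr1:235128788-235129087 (minus strand), chr9:136410408-136410707 (plus strand) and chr11:6481251-6481550 (plus strand).
TOMM20: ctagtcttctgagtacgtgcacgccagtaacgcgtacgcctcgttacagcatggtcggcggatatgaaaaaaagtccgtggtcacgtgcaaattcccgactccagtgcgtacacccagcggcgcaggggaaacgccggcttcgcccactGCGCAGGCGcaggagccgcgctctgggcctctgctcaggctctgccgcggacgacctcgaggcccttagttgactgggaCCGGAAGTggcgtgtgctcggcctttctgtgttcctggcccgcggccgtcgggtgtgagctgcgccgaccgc
PMPCA: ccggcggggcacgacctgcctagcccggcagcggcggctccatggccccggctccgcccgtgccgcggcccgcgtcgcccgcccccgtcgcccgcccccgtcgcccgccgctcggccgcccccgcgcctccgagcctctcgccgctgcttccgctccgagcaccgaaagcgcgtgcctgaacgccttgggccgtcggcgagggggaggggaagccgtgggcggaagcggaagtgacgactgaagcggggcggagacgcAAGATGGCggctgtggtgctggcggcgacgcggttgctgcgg
TIMM10B: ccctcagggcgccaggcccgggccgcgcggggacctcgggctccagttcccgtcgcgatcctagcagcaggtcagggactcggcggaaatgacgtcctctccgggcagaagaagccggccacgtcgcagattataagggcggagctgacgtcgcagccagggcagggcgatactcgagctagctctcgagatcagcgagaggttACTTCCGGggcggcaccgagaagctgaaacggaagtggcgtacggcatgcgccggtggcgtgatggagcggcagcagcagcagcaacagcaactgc
TOMM20 and TOMM7, both lower in OE, and TIMM9, which was higher, held the NRF1 letters. TIMM8A, TIMM22 and TIMM23 were among the 12 promoters without a match.

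Tested from the wider pathway were 25 genes listed as other import factors, 32 SLC25 carriers, 21 twin CX9C proteins, 3 porins and 10 matrix chaperones and proteases. Most SLC25 carriers, though not all, use the TIM22 route, and twin CX9C proteins use the disulfide relay. Of these genes 0 passed in either direction (edgeR, adjusted p below 0.05). Carriers were higher in both OE libraries for 11 of 32 genes (34.4%, with 19.9% of all genes) and lower for 0 (20.4% of all genes), with a median log2 change of 0.25 beside 0.09 for all genes. All of these 11 but SLC25A1 had a lower NC mean than DNLZ, an import gene of level class 5. Genes of classes 1 to 5 were raised in OE replicate 1 in general, with class medians between 0.29 and 1.17. The part of this shift in the carriers and the other lists was not tested. SLC25A36, a pyrimidine nucleotide carrier, had 35.1 and 15.8 CPM in OE and 8.50 and 7.91 CPM in NC, a log2 fold change of 1.63 (SE 0.47). The mitoferrin SLC25A28 and the carrier SLC25A43 had 0.97 and 1.03. Twin CX9C proteins were lower in both OE libraries for 6 of 21 genes (28.6%, with 20.4% of all genes) and higher for 0 (19.9% of all genes), with a median of -0.12. COX17, a copper chaperone for cytochrome c oxidase, had 60.4 and 86.6 CPM in OE and 117 and 102 CPM in NC. COA5 and CHCHD5 had log2 fold changes of -0.62 and -0.71.

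The list of other import factors was drawn widely and also held genes that are no import factors themselves, such as IMMT, LETM1 and PINK1. Its genes were lower in both OE libraries for 7 of 25 (28%, with 20.4% of all genes), LETM1 among them. They were higher for 2 (8%, with 19.9%), PINK1 among them, and the median was -0.30. AIFM1, which anchors CHCHD4 at the inner membrane, had 39.9 and 104 CPM in OE and 134 and 159 CPM in NC, and a log2 fold change of -1.03 (SE 0.54). The octapeptide-removing peptidase MIPEP and the stress protease OMA1 had -0.90 and -0.68. MIPEP had 9.33 and 30.0 CPM in OE and 36.9 and 36.8 CPM in NC, with OE replicate 1 the lowest library. Without OE replicate 1 its log2 change was -0.29 and that of AIFM1 -0.50, and without OE replicate 2 they were -2.02 and -1.92. Matrix chaperones and proteases were lower for 2 of 10 genes and higher for 2, each 20% and close to all genes, with DNAJA3 and HSCB at 0.61 and 0.77 and CLPX at -0.65 (-0.20 without OE replicate 1). The porins, beta barrels of the SAM route, were split like most of the import genes. VDAC1 had 287 and 1226 CPM in OE and 754 and 787 CPM in NC. VDAC2 had 175 and 658 CPM in OE and 376 and 352 CPM in NC. VDAC3 had 70.5 and 325 CPM in OE and 164 and 154 CPM in NC, so each porin was lowest in OE replicate 1 and highest in OE replicate 2. Of all genes, 19.8% lay below both NC libraries in OE replicate 1 and above both in OE replicate 2.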

How the data were processed

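Each library came as 1 file of estimated counts by Ensembl gene ID, which the authors deposited without scaling. Tools named in the submitters' processing notes were RSEM, StringTie, HISAT2, Bowtie2 and fastp, with hg18 as build. Their order, settings, annotation and strand are not stated, so overlapping and near-identical genes are uncertain: of the 34 members found in RefSeq's GRCh38.p14 genes, 12 overlap another protein-coding gene in span. Counts were rounded (13.8% to 14.7% of values held fractions), filtered with filterByExpr (minimum count 10, total 15), scaled by TMM (factors 1.36 and 0.907 in OE, 0.889 and 0.912 in NC) and fitted in R 4.3.3 with edgeR 4.0.16 by quasi-likelihood, with group as the only term; SE is the fold change over the root of F. Alternatives used limma 3.58.1 and DESeq2 1.42.0. Per-library differences are log2 CPM with a prior count of 2. On simulated counts over 12369 genes, with 100 changed, the fit recovered 28% of 4-fold and 97.0% of 16-fold changes. Each of these simulations also gave 7 false calls. Whether the simulated replicates varied as much as the OE pair is not given here. These rates are therefore no estimate of the power of this comparison. The real replicates differed by a chi-square per degree of freedom of 344.8 in OE and 13.4 in NC. Groups and replicate numbers came from the titles. Because nothing names separate cultures beyond the 2 experiments, p-values measure the spread between these libraries.

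The members, gene lists and rule for named genes were chosen with earlier results of these data known. Per-library values were due for METTL14, for members whose groups did not overlap, for those with the smallest p or highest level in each role, and for up to 3 genes of each other list; further members and HSPA9 were added after their values were seen. Replicate numbers were not taken as pairs in the main fit. Differences between replicates in OE and NC correlated with r = -0.10 over genes, with SDs of 1.30 in OE and 0.46 in NC. As OE replicate 1 shifted with NC level, this r cannot decide whether the numbers mark pairs. The fit with the replicate number as a block called 24 genes and 0 members.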

Additional observations from a re-analysis of the deposited data

How the results depend on the processing

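In the fits over all 4 libraries no member passed the threshold. The count of genes past it, 0 as reported (691 at an unadjusted p below 0.05), was 25 by DESeq2, 29 by edgeR's likelihood ratio test, 24 with the replicate block and 0 by limma voom. Leaving out 1 library gave between 7 and 7969 genes and between 0 and 27 members: 27 members passed when OE replicate 2 was dropped, 12 when OE replicate 1 was dropped (4329 genes), and 0 when either NC library was. Those fits assume that a lone library varies like the other group. The median of the members, -0.13, became -0.26 with the replicate block and lay between -0.81 and 0.23 over the fits on 3 libraries. In those fits the libraries left did not overlap for between 4 and 28 members with OE lower (8 on dropping NC replicate 2). With OE higher there were between 5 and 25. In each, the group that lost a library rests on 1 library. For comparison, with all 4 libraries scaled together, OE replicate 1 lay below both NC libraries for 45.5% of all genes. OE replicate 2 lay above both for 42.8%. Library totals gave 9 higher, where 30.2% of all genes were. METTL14 did not pass in the main fit, with a log2 change of 2.55 (adjusted p = 0.734, edgeR quasi-likelihood). DESeq2 called it at 2.54, close to the threshold (adjusted p = 0.0495, Wald test). It did not pass in edgeR's likelihood ratio test (adjusted p = 0.266), limma voom (0.826) or the replicate block (0.620).

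Signs of small log2 changes turned with the setting, and the cause was not tested beyond the library dropped. With library totals only, TOMM34 had 0.22, TIMM13 0.17, TIMM8B 0.11, MTX2 0.11, TIMM50 0.081, DNLZ 0.066, PAM16 0.054, TIMM21 0.018, TOMM70 0.0017, TIMM23B 0.36 and VDAC1 0.11. With limma voom, GRPEL1 had -0.36, TOMM6 -0.16, SAMM50 -0.13, CHCHD4 -0.014, TIMM23B-AGAP6 -0.0070, VDAC2 -0.25 and VDAC3 -0.26. With the replicate block, GRPEL1 had -0.24, SAMM50 -0.13, TOMM6 -0.071, CHCHD4 -0.019, VDAC2 -0.10 and VDAC3 -0.067. Without a filter, CHCHD4 had -0.019, TIMM23B-AGAP6 -0.0015 and TOMM6 -0.0019, and with at least 50 counts TIMM23B had 0.016.

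On dropping 1 library in turn, the lowest value (OE replicate 2 dropped) and the highest (OE replicate 1 dropped) were -0.55 and 1.20 for TOMM40, -0.63 and 0.44 for TOMM6, -1.11 and 0.27 for TOMM22, -0.91 and 0.23 for TOMM70 and -0.36 and 0.17 for TOMM34. They were -1.05 and 0.73 for SAMM50, -1.02 and 0.18 for MTX1, -0.81 and 0.43 for TIMM13, -1.09 and 0.50 for TIMM8B, -1.27 and 0.38 for TIMM10 and -0.31 and 0.23 for CHCHD4. At the inner membrane they were -1.21 and 0.16 for TIMM22, -1.18 and 0.029 for TIMM23, -1.61 and 0.32 for TIMM17A, -0.77 and 0.016 for TIMM17B and -0.96 and 0.38 for TIMM50. In the motor and peptidase they were -1.30 and 0.75 for GRPEL1, -0.76 and 0.21 for PAM16, -0.23 and 0.29 for TIMM44, -1.22 and 0.49 for DNLZ and -1.14 and 0.086 for PMPCB, and for the porins -1.47 and 0.67 (VDAC1), -1.10 and 0.85 (VDAC2) and -1.21 and 1.03 (VDAC3). TIMM23B ran between -0.35 and 0.22 and TIMM23B-AGAP6 between -0.17 and 0.19, with other libraries at the extremes. Signs held in all 4 such fits for the 9 members whose groups did not overlap, but sizes moved: TOMM20 had -1.39 and -0.43, TOMM5 -0.77 and -0.23, TOMM7 -1.12 and -0.09, PMPCA -1.35 and -0.94, TIMM8A 0.14 and 0.68 and TIMM9 0.11 and 0.62 (OE replicate 2, then 1 dropped). TIMM10B had 1.53 and 0.88, TOMM40L 0.59 and 0.27 and GRPEL2 0.47 and 0.29. Of the other genes named, SLC25A36 had 2.06 and 0.95, SLC25A28 1.28 and 0.53, CHCHD5 -1.31 and -0.32, COX17 -0.90 and -0.34, CLPX -1.35 and -0.20 and HSCB 0.30 (OE replicate 2 dropped) to 1.13 (NC replicate 1 dropped).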
